A study of Oryctolagus cuniculus with 18 samples.

Results

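Transcripts of 5 genes of the transforming growth factor beta (TGF beta) pathway were followed in the abdominal aorta of control and atherosclerotic rabbits: the ligands TGFB1 and TGFB3, the activin subunit INHBA, the co-receptor betaglycan (TGFBR3) and connective tissue growth factor (CTGF). The members were chosen by symbol, as the rows of the array that carry these names, and make up 5 of the 84 genes of interest (GOIs) of a rabbit wound healing PCR array with 89 assays in all. Both groups were male New Zealand White rabbits. The 9 control rabbits were healthy and ate chow. The 9 atherosclerotic rabbits, with stable advanced disease per the labels, had their aorta denuded with a balloon and ate a diet with 0.30% cholesterol for 8 weeks followed by 0.15% for 12 weeks, so injury and diet cannot be told apart. The question was how the members differed between the groups, how TGFB1 stood to TGFB3 within each rabbit, and whether CTGF went up and down with any ligand among rabbits of 1 group.

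TGF beta ligands are secreted in a latent form, held in the matrix and freed by proteases and integrins, after which they bind a pair of serine/threonine kinase receptors that phosphorylate SMAD proteins. Betaglycan presents the ligand to the signalling receptors, and in smooth muscle cells the pathway is known for raising contractile and matrix genes. INHBA encodes the subunit that forms activin A, a ligand of the same superfamily that acts through its own receptors, and CTGF (also named CCN2) encodes a matrix protein that TGF beta is known to induce in many cell types.

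Expression is given as the deposited ratio, 2 to the power of minus deltaCt, where Ct is the PCR cycle at which a well crosses the detection threshold and deltaCt is its distance from the reference level, a mean over the Ct of 5 reference genes of the same rabbit. A difference of 1 on the log2 scale is therefore 1 doubling. Each gene was read in 1 well per rabbit, so PCR error is part of the variation seen among rabbits. All 90 member wells had a Ct below the ceiling of 35 cycles, from 19.29 to 31.77.

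In 2 rabbits the reference level stood apart. Control rabbit 3 had a level of 24.5 cycles where its group otherwise lay between 22.0 and 22.8, and atherosclerotic rabbit 20 had 19.8 where its group otherwise lay between 22.6 and 23.7. Reference genes themselves moved in raw Ct, ACTA2 (smooth muscle actin) later by 2.95 cycles, LDHA (lactate dehydrogenase A) by -2.49 cycles and GAPDH by -1.07 cycles in the atherosclerotic group (exact two-sided permutation tests, p = 0.0029, 4.1e-05 and 0.0060), so member values are also given at other reference levels and as ratios between genes of 1 rabbit, in which the reference level cancels. Levels of smooth muscle and myeloid marker transcripts differed as well. The summed ratio of 3 smooth muscle markers (ACTA2, TAGLN, ACTC1) ran from 25.2 to 36.9 (median 30.6) in the control group and from 1.31 to 13.6 (median 3.58) in the atherosclerotic group. The highest of the latter was rabbit 20, whose ACTA2 ratio of 11.6 lay inside the control range, and without it the highest sum was 8.18. ACTC1, the weakest of these markers, was at the ceiling in 1 control and 7 atherosclerotic rabbits. The summed ratio of the 5 macrophage and myeloid markers on the array (TLR4, TNF, CTSK, MMP9, IL1B) ran from 0.467 to 0.996 and from 3.33 to 7.26, with TNF at the ceiling in all 9 control rabbits and MMP9 in 6 of them. CTSK made up nearly all of this sum (0.454 to 0.991 and 3.14 to 6.99), and 4 of the 5 genes were called higher, IL1B not. The 4 T cell markers summed to between 0.0800 and 0.148 (median 0.116) and between 0.0650 and 0.274 (median 0.0887, highest 0.134 without rabbit 20), mostly from IFNG, with CD40LG called higher and IL2 lower, and no marker of the endothelium list was on the array. In whole tissue, fewer cells of a type and less RNA per cell cannot be told apart, and the part of these shifts in the results was not tested.

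TGFB1 was upregulated and TGFB3, INHBA and CTGF were downregulated in the atherosclerotic group at the deposited reference level, while TGFBR3 did not pass the test. In limma, with p-values of the 84 GOIs adjusted by Benjamini-Hochberg, 4 of the 5 members had an adjusted p under 0.05, beside 60.7% of all GOIs. Of these 1 was higher (38.1% of all GOIs) and 3 were lower (22.6% of all GOIs). The median log2 fold change of the members was -0.81 against 0.37 over all GOIs. For 1 member the groups did not overlap, a pattern seen in 22.6% of all GOIs. Most genes of the array moved, and with 5 members their share of calls is not read as different from it.

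**Figure D1:**
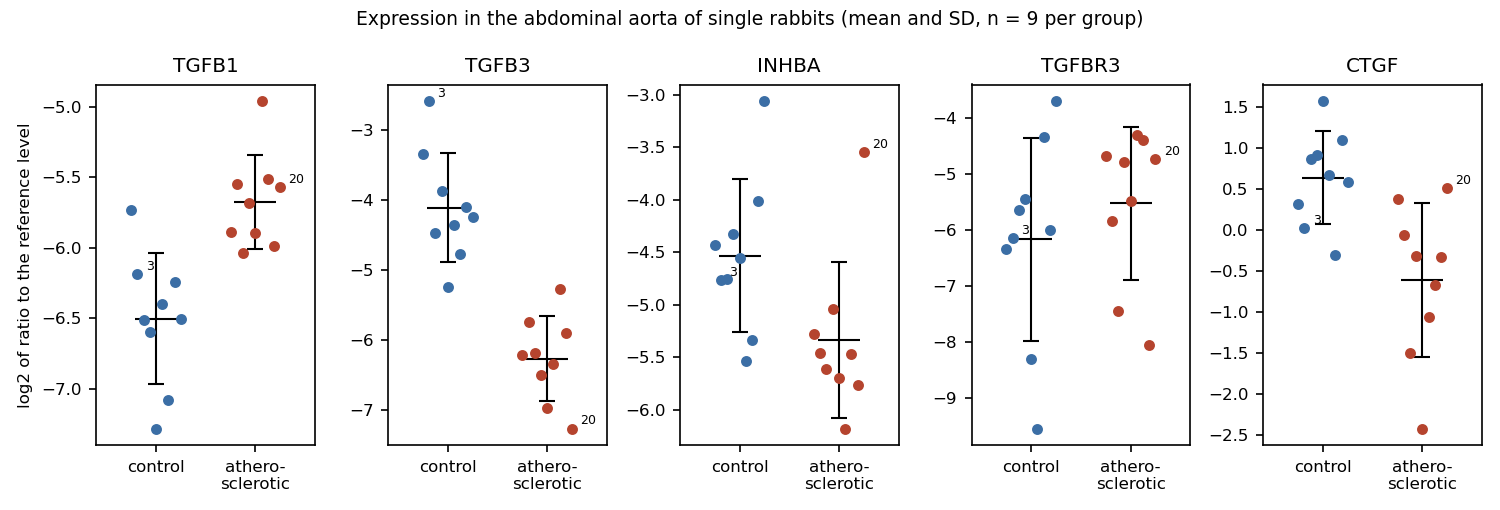
Log2 of the deposited ratio of each gene to the reference level (vertical axis, own range per panel) in single rabbits of the control group (blue) and the atherosclerotic group (red), with mean and SD (n = 9 per group) and rabbits 3 and 20 numbered. TGFB3 separates the groups at this reference level, though its highest atherosclerotic and lowest control value nearly touch. The other 4 genes overlap, and TGFBR3 spreads most widely within both groups.

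TGFB1 encodes the TGF beta isoform best known from vascular lesions. Its ratio ran from 0.00643 to 0.0188 (median 0.0110) in the control group and from 0.0152 to 0.0321 (median 0.0194) in the atherosclerotic group. The ranges overlapped, with 5 of the 9 atherosclerotic rabbits above the highest control rabbit and none below the lowest. The mean ratio was 0.0115 ± 0.00364 (SD, n = 9) in control and 0.0201 ± 0.00519 (SD, n = 9) in atherosclerotic rabbits. The log2 fold change was 0.83 with a standard error of 0.22, a 1.77-fold increase (limma, adjusted p = 0.0023, and adjusted p = 0.00084 when each GOI was instead tested by exact two-sided permutation). Within the atherosclerotic group TGFB1 was among the steadiest genes, with an SD of 0.33 on the log2 scale that ranked 61st of the 63 GOIs detected in every rabbit, where the median SD was 0.64.

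The increase of TGFB1 rested on which reference genes were used. Without ACTA2 the log2 fold change was 0.00 (adjusted p = 0.99), and without LDHA it was 1.38 (adjusted p = 8.3e-06, limma). In raw Ct the TGFB1 wells differed by -0.79 cycles, which did not pass an exact two-sided permutation test (p = 0.078).

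TGFB3 encodes an isoform with its own gene that signals through the same receptors as TGFB1. Its ratio ran from 0.0264 to 0.167 (median 0.0530) in the control group and from 0.00653 to 0.0261 (median 0.0136) in the atherosclerotic group. Every atherosclerotic rabbit lay below every control rabbit, although the highest atherosclerotic and the lowest control value nearly touched. Rabbits 3 and 20, the ones with unusual reference levels, held the highest control and the lowest atherosclerotic value. The mean ratio was 0.0669 ± 0.0427 (SD, n = 9) and 0.0141 ± 0.00591 (SD, n = 9). TGFB3 fell by 2.15 on the log2 scale with a standard error of 0.33, to 0.225 of the control level (limma, adjusted p = 9.9e-06), and without both of these rabbits it fell by 1.84 (adjusted p = 1.1e-05). TGFB3 remained lower at every other reference level tried, between -2.98 without ACTA2 and -1.60 without LDHA, with an adjusted p of at most 0.00027 (limma). Before any normalization its wells were later by 2.19 cycles in the atherosclerotic group (exact two-sided permutation test, p = 0.00012). The groups overlapped in raw Ct, from 26.16 to 27.69 cycles in control and from 27.05 to 30.62 cycles in atherosclerotic rabbits. TGFB3 ranked 22nd of the 84 GOIs by the size of its change.

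The ratio of TGFB1 to TGFB3 within a rabbit needs no reference gene, and it rose in the atherosclerotic group. In the control rabbits it ran from 0.0825 to 0.243 (median 0.207) and in the atherosclerotic rabbits from 0.841 to 3.23 (median 1.24). The groups were far apart, with TGFB1 above TGFB3 on this scale in 7 of the 9 atherosclerotic rabbits and in 0 of the 9 control rabbits. Because the 2 assays may differ in efficiency, a ratio of 1 does not mean equal numbers of transcripts, and only the change between the groups is read. The mean was 0.199 ± 0.0530 (SD, n = 9) against 1.66 ± 0.829 (SD, n = 9), and the difference of mean log2 ratios was 2.98, a 7.88-fold increase (exact two-sided permutation test, p = 4.1e-05, the smallest that 9 rabbits against 9 can give). After adjustment over all 3486 pairs of GOIs the p was 0.00016, where 66.1% of all pairs passed the threshold of 0.05, and by size the difference ranked 943rd. The lowest control ratio belonged to rabbit 3 and the highest atherosclerotic ratio to rabbit 20. Without both, the difference was 2.69 (exact permutation, adjusted p = 0.00045).

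Of the 10 pairs among the 5 members, 5 differed between the groups after that adjustment, no more than the 66.1% of all pairs. In the pairs with TGFB1, its level rose by 1.64 on the log2 scale against INHBA (adjusted p = 0.0017, exact permutation) and by 2.07 against CTGF (adjusted p = 0.00058, exact permutation). In the pairs with TGFB3, the others gained on it: TGFBR3 by 2.79 (adjusted p = 0.0082, exact permutation) and INHBA by 1.34 (adjusted p = 0.022, exact permutation). For INHBA over TGFB3 the lowest control value, -2.18, was that of rabbit 3 and the highest atherosclerotic value, 3.71, that of rabbit 20. The difference of this pair without both rabbits was not tested. CTGF over TGFB3 differed by 0.91, with 1 atherosclerotic rabbit above the control range, and did not pass (adjusted p = 0.14, exact permutation). CTGF over TGFBR3 differed by -1.89, which missed the threshold by exact permutation (adjusted p = 0.065) and passed in limma (adjusted p = 0.040). CTGF over INHBA differed by -0.44 with a standard error of 0.39, the smallest difference among the 6 pairs without TGFBR3 (adjusted p = 0.31, exact permutation). Against all 83 other GOIs, TGFB3 fell against 73 and rose against 1, the most one-sided of the members. CTGF fell against 50 and rose against 3, INHBA fell against 43 and rose against 6, and TGFBR3 fell against 15 and rose against 9. TGFB1 rose against 33 and fell against 22, which placed it in the middle of the array. Pairs not called numbered 9 for TGFB3, 30 for CTGF, 34 for INHBA, 59 for TGFBR3 and 28 for TGFB1. Of all pairs, 66.1% were called. All 83 pairs of a member reuse its own values, so these counts restate its change and are not separate support.

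**Figure D2:**
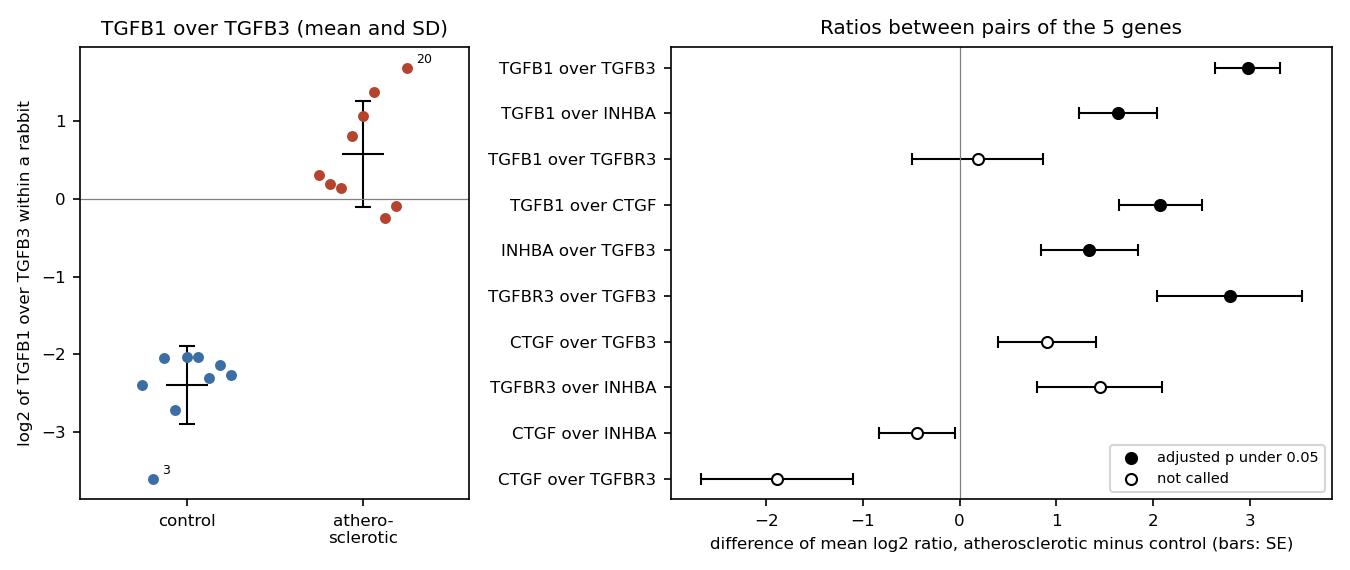
Left, log2 of TGFB1 over TGFB3 within each rabbit (vertical axis) with mean and SD (n = 9 per group) and rabbits 3 and 20 numbered. Right, difference of mean log2 ratio, atherosclerotic minus control, for the 10 pairs of members (points, with SE from limma as bars), filled where the adjusted p of the exact permutation test was under 0.05. TGFB1 over TGFB3 shows the largest difference, 2.98, and 5 of the 10 pairs are filled.

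The smooth muscle and myeloid transcripts give a scale for these changes, again within a rabbit. Against TAGLN (transgelin, listed as LOC100009332), an actin-binding protein of smooth muscle, TGFB1 rose by 3.82, INHBA by 2.18 and CTGF by 1.74 on the log2 scale (adjusted p = 0.00016, 0.00058 and 0.00028, exact permutation over all pairs). TGFB3 rose against TAGLN by 0.84, close to the threshold (adjusted p = 0.048 by exact permutation and 0.058 by limma). TAGLN is the smooth muscle GOI with the larger fall. Against CTSK (cathepsin K), a protease of macrophages and other cells, TGFB1 fell by 1.92 (adjusted p = 0.00028, exact permutation). Against TLR4, a receptor of innate immune cells, TGFB1 fell by 4.48 (adjusted p = 0.00016, exact permutation). These 3 genes were picked from the marker lists, and the other markers were not set against the members. The picked genes ranked 1st (TLR4), 13th (TAGLN) and 15th (CTSK) of all GOIs by the size of their change. Their own log2 fold changes were 5.30, -2.99 and 2.75, beside 0.83 for TGFB1. A gene that changed little would also fall against TLR4 and CTSK and rise against TAGLN. The p-values of these pairs therefore do not test the members by themselves. Only TGFB1 was set against CTSK and TLR4.

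INHBA, the activin A subunit, was lower in the atherosclerotic group by a margin close to the spread between rabbits. Its ratio ran from 0.0215 to 0.120 (median 0.0427) in the control group and from 0.0138 to 0.0855 (median 0.0225) in the atherosclerotic group. The ranges overlapped, with 4 of the 9 atherosclerotic rabbits below the lowest control rabbit, while rabbit 20 lay high within the control range. The mean ratio was 0.0490 ± 0.0294 (SD, n = 9) and 0.0288 ± 0.0218 (SD, n = 9). INHBA fell by 0.81 on the log2 scale with a standard error of 0.34 (limma, adjusted p = 0.046). With each GOI tested by exact two-sided permutation the adjusted p was 0.056, and leaving out any single one of 13 of the 18 rabbits ended the call, which held only without control rabbit 3, 7, 13 or 15 or atherosclerotic rabbit 20. Without rabbits 3 and 20 INHBA fell by 1.06 (limma, adjusted p = 0.0040), and in a reference level without LDHA it fell by 0.26 (limma, adjusted p = 0.48). In raw Ct its wells were later by 0.85 cycles, which did not pass the exact two-sided permutation test (p = 0.26). In the atherosclerotic group the log2 ratio of INHBA had a Pearson r of -0.92 with the reference level itself over the 9 rabbits, and -0.45 without rabbit 20.

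TGFBR3, betaglycan, was the most variable member. Its ratio ran from 0.00134 to 0.0776 (median 0.0156) in the control group, a 58.2-fold range, and from 0.00377 to 0.0508 (median 0.0365) in the atherosclerotic group, a 13.5-fold range. All atherosclerotic values lay inside the control range. Control rabbits 11 and 13 and atherosclerotic rabbits 6 and 18 were low, at 0.00315, 0.00134, 0.00572 and 0.00377, and the latest of these wells, at 31.77 cycles, was still below the ceiling. The SD on the log2 scale was 1.82 among control and 1.37 among atherosclerotic rabbits, ranking 4th and 3rd among the 63 GOIs detected in every rabbit. The log2 fold change was 0.64 with a standard error of 0.70 and a 95% confidence interval from -0.82 to 2.10 (limma, adjusted p = 0.44), an interval that spans a decrease, no change and a larger increase. Without ACTA2 in the reference level the value was -0.18 (limma, adjusted p = 0.83), and in raw Ct the wells differed by -0.60 cycles (exact two-sided permutation test, p = 0.51).

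CTGF, the matrix protein used in many studies as a readout of TGF beta signalling, was lower in the atherosclerotic group. Its ratio ran from 0.808 to 2.97 (median 1.58) in the control group and from 0.186 to 1.42 (median 0.795) in the atherosclerotic group. The ranges overlapped, with 6 of the 9 atherosclerotic rabbits below the lowest control rabbit and rabbits 2, 4 and 20 inside the control range. The mean ratio was 1.66 ± 0.649 (SD, n = 9) and 0.767 ± 0.412 (SD, n = 9). CTGF fell by 1.25 on the log2 scale with a standard error of 0.35, to 0.422 of the control level (limma, adjusted p = 0.0043), and by 1.46 without rabbits 3 and 20 (adjusted p = 0.0015). Against a reference level without LDHA it fell by 0.69 and missed the threshold (limma, adjusted p = 0.077). In raw Ct its wells were later by 1.29 cycles (exact two-sided permutation test, p = 0.088). Within the atherosclerotic group CTGF varied 7.61-fold between rabbits 10 and 20, against 3.67-fold among control rabbits.

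At the other reference levels the direction of TGFB3, INHBA and CTGF stayed negative, while that of TGFBR3 turned without ACTA2 and that of TGFB1 came to 0.00. Without ACTA2, 3 of the 5 members were called, beside 66.7% of all GOIs, and without LDHA 2 of the 5, beside 67.9%. Without both, 3 of the 5 were called, beside 60.7%, and when the mean Ct of the 63 GOIs detected in all rabbits took the place of the reference genes, 3 of the 5, beside 66.7%. The median of all GOIs moved with the reference level, to -0.45 without ACTA2, 0.92 without LDHA, 0.06 without both and -0.20 with the mean of the detected genes. A change of reference level shifts all genes of a rabbit alike, so distances from that median are the same at each level by construction. TGFB1 lay 0.46 and TGFBR3 0.27 above it, and INHBA at -1.18, CTGF at -1.62 and TGFB3 at -2.52 from it. GAPDH was part of every set of reference genes used, and only the mean of the detected genes holds no reference gene.

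**Figure D3:**
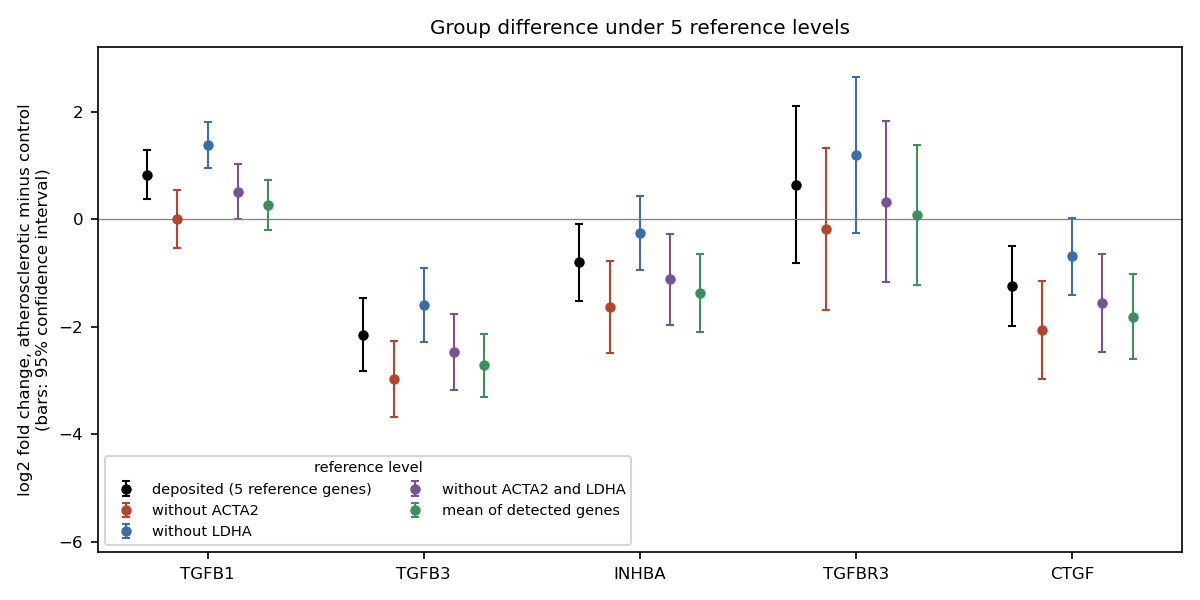
Log2 fold change of each member, atherosclerotic minus control (vertical axis), with its 95% confidence interval from limma, under the deposited reference level and 4 others (colours). The interval of TGFB3 lies below 0 under all 5 levels, that of TGFB1 lies above 0 only under the deposited level and the level without LDHA, and that of TGFBR3 spans 0 throughout.

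No relation of CTGF with a ligand or with TGFBR3 passed the test in either group. Groups were kept apart, since they differ in mean, and each r was tested by an exact two-sided permutation of 9 rabbits with adjustment over the 83 other GOIs of that group. In the control group Pearson r of CTGF was -0.26 with TGFB1, -0.46 with TGFB3, 0.30 with INHBA and -0.43 with TGFBR3 (exact permutation, p = 0.51, 0.21, 0.44 and 0.25, adjusted p = 0.76, 0.63, 0.76 and 0.70). Spearman's rho was -0.33, -0.28, 0.40 and -0.27 (exact permutation, p = 0.39, 0.46, 0.29 and 0.49, adjusted p = 0.78, 0.85, 0.69 and 0.85). No GOI passed with CTGF in the control group, that is 0% of 83, with 6 at an unadjusted p under 0.05. Without the 2 rabbits farthest from the median of the ligand, r with TGFB1 became 0.49 and with TGFB3 0.26, so the negative signs did not hold without rabbits 1 and 11 and rabbits 3 and 11 respectively, while r with INHBA became 0.67 and with TGFBR3 -0.70. Without control rabbit 15 alone r was -0.78 with TGFB1, -0.88 with TGFB3 and 0.06 with INHBA (exact permutation, adjusted p = 0.37, 0.33 and 0.95).

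In the atherosclerotic group r of CTGF was 0.11 with TGFB1, 0.10 with TGFB3, 0.58 with INHBA and 0.20 with TGFBR3 (exact permutation, p = 0.77, 0.81, 0.11 and 0.61, adjusted p = 0.91, 0.94, 0.36 and 0.78). Spearman's rho was 0.23, -0.08, 0.77 and 0.13 (exact permutation, p = 0.55, 0.84, 0.021 and 0.74, adjusted p = 0.76, 0.92, 0.20 and 0.89). INHBA came closest and kept r = 0.54 without rabbits 12 and 20, but it did not pass after adjustment. Both axes share the reference level of the rabbit, with which CTGF had r = -0.57 in this group (-0.54 without rabbit 20). In a reference level without ACTA2 r of CTGF was 0.67 with TGFB1, 0.51 with TGFB3, 0.78 with INHBA and 0.45 with TGFBR3 (exact permutation, adjusted p = 0.18, 0.42, 0.097 and 0.49), so the size of r in this group moved with the reference genes. With TGFB1, TGFB3 and TGFBR3 r at the deposited level became 0.30, 0.70 and 0.20 without the 2 farthest rabbits. At 9 rabbits a moderate relation may go undetected.

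1 of the 83 other GOIs (1.2%) passed with CTGF in the atherosclerotic group. It was PLOD2, a lysyl hydroxylase that prepares collagen for cross-linking and that TGF beta is known to raise. PLOD2 ran from 0.0233 to 0.0648 (median 0.0456) in the atherosclerotic group and from 0.0580 to 0.155 (median 0.0896) in the control group. The lowest and the highest CTGF values in the atherosclerotic group, those of rabbits 10 and 20, were also the lowest and the highest PLOD2 values. These 2 rabbits also held the highest and the lowest reference level of the group, 23.7 and 19.8 cycles, which both genes share. Pearson r was 0.94 (exact permutation, p = 0.00034, adjusted p = 0.028) and Spearman's rho 0.85 (exact permutation, p = 0.0061, adjusted p = 0.16), and without the 2 rabbits farthest from the median of PLOD2, 6 and 10, r was 0.80 (exact permutation, p = 0.032). In the control group r was 0.29 (exact permutation, p = 0.45, adjusted p = 0.76) and rho 0.17 (exact permutation, p = 0.68, adjusted p = 0.94), and without rabbits 15 and 19 r was -0.44, while with the mean of the detected genes as reference it was 0.57. The difference of r between the groups was not tested. At the other reference levels r in the atherosclerotic group was between 0.93 and 0.96 with an adjusted p of at most 0.050 (exact permutation), and with any single rabbit left out r was between 0.89 and 0.99, although 7 of these 9 removals, all but those of rabbits 4 and 14, raised the adjusted p above the threshold, to at most 0.26.

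**Figure D4:**
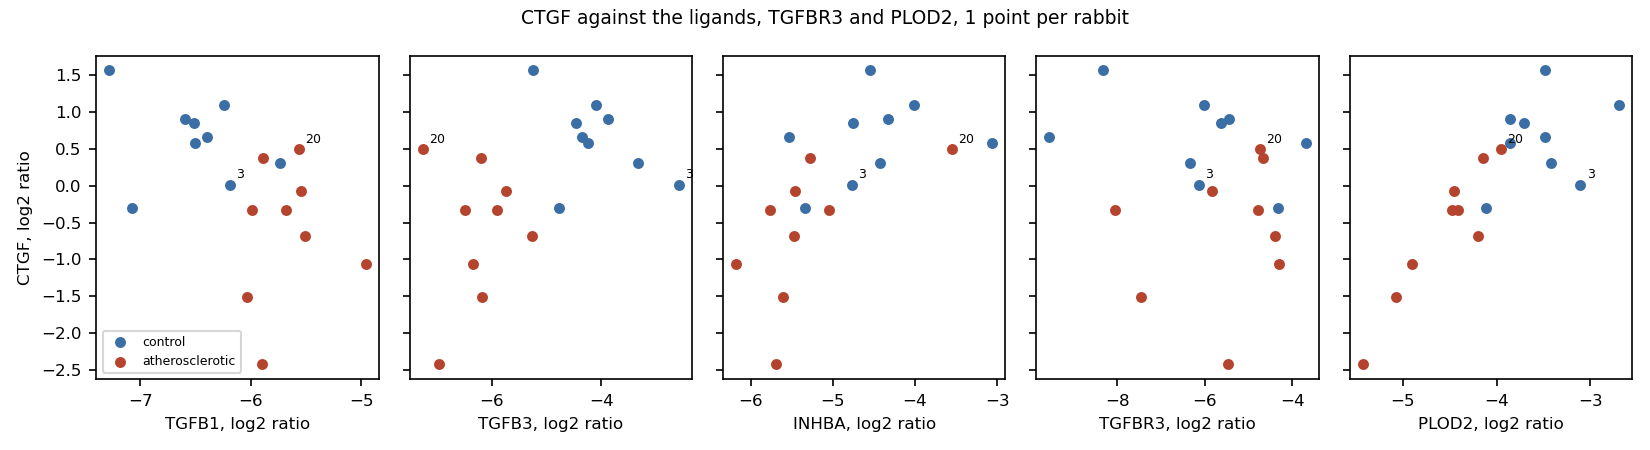
CTGF (vertical axis, log2 ratio) against TGFB1, TGFB3, INHBA, TGFBR3 and PLOD2 (horizontal axes, log2 ratio), 1 point per control (blue) or atherosclerotic (red) rabbit, with rabbits 3 and 20 numbered. Within a group the first 4 panels show no relation that passes the test, and the red points of the PLOD2 panel lie along a line (r = 0.94, n = 9).

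The genes most like each member were taken by the Pearson r of deviations from the group mean over the 18 rabbits, among the 62 other GOIs detected in every rabbit, as a description. CTGF was nearest to PLOD2 (r = 0.70) and HGF, hepatocyte growth factor (r = 0.67). TGFB3 was nearest to ITGA5, the alpha chain of a fibronectin receptor (r = 0.86, with 0.84 in the control and 0.90 in the atherosclerotic group), and to the collagen gene COL5A1 (r = 0.66). INHBA was nearest to the cytokine IFNG (r = 0.71) and the matrix proteoglycan DCN (r = 0.70), but without rabbits 3 and 20 these were 0.44 and 0.61, and in the atherosclerotic group r turned from 0.75 and 0.53 to -0.32 and -0.30 without rabbit 20. TGFBR3 was nearest to the chemokine CCL2 (r = 0.65) and the laminin receptor chain ITGA6 (r = 0.64), with r of 0.87 and 0.83 in the control group against 0.04 and 0.10 in the atherosclerotic group. Both nearest genes of each of these 4 members were again the nearest when the mean of the detected genes served as reference. TGFB1 was nearest to TGFB3 (r = 0.52, with 0.79 in the control and 0.04 in the atherosclerotic group) and ITGA5 (r = 0.50), but at the other reference to the integrin chains ITGB1 (r = 0.50) and ITGA1 (r = 0.47). All these values share the reference level of the rabbit, and in the control group TGFB3 itself had r = 0.85 with that level (0.69 without rabbit 3). Without rabbits 3 and 20 the r of the members other than INHBA with their nearest genes at the deposited reference level lay between 0.50 and 0.76.

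Transcripts that TGF beta is known to raise moved in both directions. Of 15 such genes listed, 8 were on the array, of which 2 were called higher, 3 lower and 3 neither, a share near the 60.7% called over all GOIs, with a median log2 fold change of -0.56 against 0.37 over all GOIs. TIMP1, an inhibitor of matrix proteases, rose by 2.40 (adjusted p = 2.5e-08, limma) and the collagen gene COL1A2 by 1.61 (adjusted p = 6.2e-05, limma), which was 0.78 and not called without ACTA2 in the reference level (adjusted p = 0.056). TAGLN fell by 2.99 (adjusted p = 2.8e-08, limma) and PLOD2 by 1.04 (adjusted p = 0.00064, limma), the latter not called without LDHA (-0.48, adjusted p = 0.058). The remaining call, lower, was ACTC1, the cardiac actin gene, with 1 control and 7 atherosclerotic wells at the ceiling. TAGLN and ACTC1 are also on the smooth muscle list above. Without ACTA2 in the reference level 1 was called higher and 5 lower, where all GOIs split into 22 higher and 34 lower, and without LDHA 2 higher and 1 lower, where all GOIs split into 47 and 10.

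Of 15 genes listed for the storage, activation or binding of latent TGF beta, 10 were on the array, of which 3 were called higher, 4 lower and 3 neither, also near the 60.7% called over all GOIs, with a median of 0.16 against 0.37. Proteases were on both sides. MMP9, a gelatinase, rose by 4.19 (adjusted p = 2.7e-07, limma), with 6 control wells at the ceiling, and PLAU, the urokinase plasminogen activator, by 3.37 (adjusted p = 7.4e-10, limma). MMP2, also a gelatinase, rose by 1.83 (adjusted p = 1.2e-06, limma), while PLG, plasminogen, fell by 2.87 (adjusted p = 9.9e-06, limma), with 7 atherosclerotic wells at the ceiling. For MMP9 and PLG the size of the change is set in part by the ceiling, since a well there gives only an upper limit on expression, and it has no exact value. The other 3 called lower were the integrin chains ITGB5, ITGB1 and ITGAV, which pair into receptors that can free latent TGF beta. ITGAV was not called without LDHA in the reference level (adjusted p = 0.17, limma) and ITGB1 was then at the threshold (adjusted p = 0.0498, limma). MMP9 is also on the myeloid list, whose summed level was higher in the atherosclerotic group, and its part in these calls was not tested. Among the genes listed as receptors or signalling members, the kinase MAPK3 rose by 1.01 (adjusted p = 0.00068, limma), and the call was lost without ACTA2 in the reference level (0.18, adjusted p = 0.38). The type I and type II TGF beta receptors and the SMAD genes were not among the genes analysed here.

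**Figure D5:**
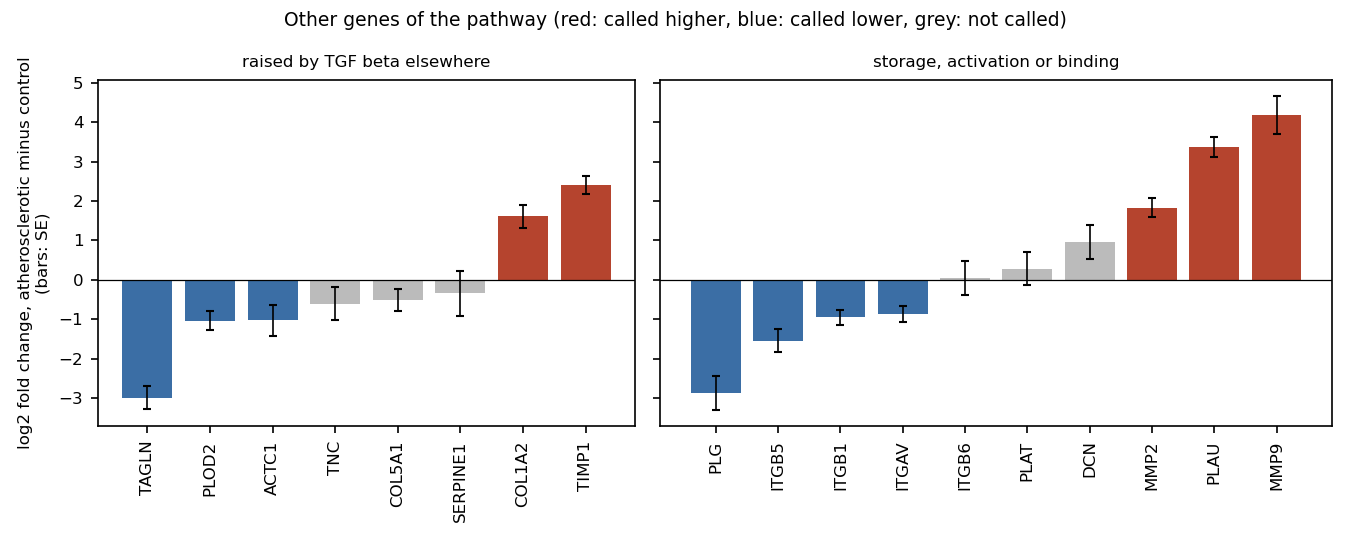
Log2 fold change, atherosclerotic minus control (vertical axis, bars with SE from limma), of the genes of 2 pathway lists on the array, in red where called higher, blue where called lower and grey where not called. The 8 transcripts raised by TGF beta elsewhere split into 2 higher and 3 lower, and the 10 genes of storage, activation or binding into 3 higher and 4 lower.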

How the data were processed

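RNA from the abdominal aorta of 9 control and 9 atherosclerotic rabbits was read by real-time PCR with SYBR green on a wound healing array. The authors deposited the raw Ct per well, in cycles, and a normalized ratio, 2 to the power of minus deltaCt. Comparing the deposited tables showed a ceiling, 35 cycles, applied to later and undetermined wells, and a reference level equal to the geometric mean Ct of the 5 reference genes. The deposited fold-change column holds the authors' own comparison and was not used. There is 1 well per gene and rabbit, which limits the precision, and no plate or batch is named in the labels.

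Groups and rabbit numbers came from the labels. Deposited ratios were taken to log2 and compared between groups with limma 3.58.1 (lmFit and eBayes, no covariates, R 4.3.3), with Benjamini-Hochberg adjustment over the 84 GOIs and a threshold of 0.05. Ratios within a rabbit and correlations were tested by exact two-sided permutation (48620 splits of 9 against 9, 362880 pairings of 9), with adjustment over 3486 pairs or 83 genes, in Python 3.11.15 with numpy 2.4.6 and pandas 2.3.3. Both steps were run on simulated data in which genes were independent and shared no reference level. The related genes there had a strong relation, so a moderate r and a shared reference level were not covered. The members and gene lists were chosen with earlier results of these data known. Named were the members, the called genes of each pathway list, with fold changes for at most 4 of the largest, and the 2 genes most like each member. Part of the signalling list is not reported here. Alternatives were other reference levels, no ceiling with undetermined wells at 40 cycles, a filter of 5 rabbits with a Ct below the ceiling in a group, exact tests, the ratio in place of its log2, Spearman's rho and leaving out rabbits. The removal of rabbits 3 and 20 together and the alternatives for PLOD2 were chosen after seeing the data.

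Symbols are those of the deposited annotation, except that LOC100009332 is given by the name TAGLN that stands beside it there. In a RefSeq gene table of assembly mOryCun1.1, used for names only, 4 of the 5 members were found by symbol and 2, TGFB3 and TGFBR3, by accession. The deposited name of the TGFBR3 assay reads beta receptor III-like.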

Additional observations from a re-analysis of the deposited data

Results flagged for a closer look

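In 6 of 32 groups of 9 values that were examined, the highest or lowest rabbit stood farther from the rest than Dixon's limit allows, where chance alone gives about 1.6. The 32 groups share rabbits and genes, and most of the 6 came from rabbits 3 and 20, so the count is not read as an excess. The reference level of control rabbit 3 was 24.5 cycles (others 22.0 to 22.8), and its log2 of TGFB1 over TGFB3 was -3.60 (others -2.72 to -2.04), a value that does not contain the reference level. The reference level of atherosclerotic rabbit 20 was 19.8 cycles (others 22.6 to 23.7). In that rabbit the log2 ratio of INHBA was -3.55 (others -6.18 to -5.04), and INHBA over TGFB3 was 3.71 (others -0.21 to 1.45). In atherosclerotic rabbit 12 the log2 ratio of TGFB1 was -4.96 (others -6.04 to -5.51). No cause of these values was tested.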

How the results depend on the processing

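TGFB3 and the ratio of TGFB1 to TGFB3 kept their direction and their call under every alternative run, with log2 differences from -2.98 to -1.60 and from 2.69 to 3.08. Not every alternative could move them. No member well was at the ceiling, so dropping the ceiling left both values in place, as did the filter for TGFB3. In the ratio the reference level cancels, so no other reference level was run for it. The number of GOIs called lower was 19 at the deposited reference level, 34 without ACTA2, 10 without LDHA and 29 with the mean of the detected genes, while the GOIs called in all stayed between 47 and 58. TGFB1 lost its call without ACTA2 (0.0025), without ACTA2 and LDHA (0.51) and with the mean of the detected genes (0.26). TGFBR3, not called in any setting, turned to -0.18 without ACTA2. INHBA lost its call without LDHA (-0.26), on the ratio in place of its log2 (-0.77 as the log2 of the mean ratios over each other) and by exact permutation (-0.81, adjusted p = 0.056). With single rabbits left out INHBA ran from -1.03 to -0.62, with adjusted p (limma) from 0.0034 to 0.091, and was -1.06 without rabbits 3 and 20. CTGF lost its call without LDHA (-0.69). The cause was not tested beyond the change of reference genes that makes each setting.

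No correlation of CTGF with a member passed in any setting, but r in the atherosclerotic group was larger without ACTA2 (TGFB1 0.67, TGFB3 0.51, INHBA 0.78) and without ACTA2 and LDHA (0.69, 0.51 and 0.77) than at the deposited level. The sign turned for TGFB1 in the control group without its 2 farthest rabbits (0.49) and with the mean of the detected genes (0.14), and for TGFB3 there without its 2 farthest rabbits (0.26). In the atherosclerotic group it turned for TGFB1 without LDHA (-0.12), and for TGFB3 with the mean of the detected genes (-0.0057) and by Spearman's rho (-0.083). With single rabbits left out r ran from -0.78 to 0.22 for TGFB1 in the control group (positive without rabbit 11) and from -0.88 to -0.19 for TGFB3, both lowest without rabbit 15, and from 0.06 (without rabbit 15) to 0.50 for INHBA, and in the atherosclerotic group from -0.10 to 0.44 for TGFB1 (negative without rabbit 6 or 10) and from -0.36 to 0.53 for TGFB3 (negative without rabbit 10).

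No paired analysis was possible because the groups share no rabbit number. With 9 rabbits a group and 1 well per gene, an r must be large to pass, and the depth of the PCR did not limit the members, whose wells all lay below the ceiling.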
